A study of Mus musculus with 13 samples.

Results

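The collagen IV chain genes Col4a1, Col4a2, Col4a3, Col4a4, Col4a5 and Col4a6, the nidogen genes Nid1 and Nid2 and the perlecan gene Hspg2 were followed in C2C12 cells, an established line of mouse myoblasts. The genes were taken by their symbols, with earlier results of these data known, and all 9 were found among the 55642 genes of the count table. The cells were transfected with nontargeting siRNAs (control KD) or with siRNAs to YBX3 (YBX3 KD), and all were harvested 48 h after transfection. The 0 day libraries came from proliferating cells in medium with fetal bovine serum, and there were 4 of control KD and 4 of YBX3 KD, with replicates A to D in each. The 1 day libraries came from cells moved 24 h after transfection to differentiation medium with 10% horse serum for the last 24 h, and there were 2 of control KD (C and D) and 3 of YBX3 KD (B, C and D). No untransfected cells were analysed here, so every group carries an siRNA, and the line is the only cell source. The submitters call the samples biological replicates, but separate cultures or passages are not described further, so p-values measure the spread between these libraries.

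Basement membranes are thin sheets of matrix that surround muscle fibres and underlie epithelia and endothelia. Laminins and collagen IV each polymerise into a network, nidogens bridge these networks, and perlecan, a large heparan sulfate proteoglycan, binds them and growth factors. The collagen IV chains assemble inside the cell into trimers, of which the form made from the products of Col4a1 and Col4a2 is found in nearly all basement membranes. The products of Col4a3, Col4a4 and Col4a5 form the network of the mature kidney glomerulus, and those of Col4a5 and Col4a6 join in smooth muscle and some epithelia. In skeletal muscle, the basement membrane encloses each fibre together with its satellite cells, the stem cells from which myoblasts arise.

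The collagen IV genes lie in 3 head-to-head pairs, transcribed away from each other. In GRCm39, Col4a1 (chromosome 8, 11248423 to 11362826, minus strand) faces Col4a2 (chromosome 8, 11362471 to 11499287, plus strand), and their canonical transcripts overlap by 318 bases at their starts. Col4a4 (chromosome 1, 82426144 to 82564800, minus strand) faces Col4a3 (chromosome 1, 82564642 to 82699780, plus strand) with an overlap of 104 bases. Col4a6 (chromosome X, 139948399 to 140257072, minus strand) and Col4a5 (chromosome X, 140258354 to 140472231, plus strand) leave 1281 bases between their starts. Nid1 (chromosome 13, 13612071 to 13686860), Nid2 (chromosome 14, 19801298 to 19861855) and Hspg2 (chromosome 4, 137196079 to 137298231) are each on the plus strand. The library kit keeps the strand, but whether the counting used it is not given in the sources used here, so reads within the 318 shared bases of Col4a1 and Col4a2 and the 104 of Col4a4 and Col4a3 cannot be assigned with certainty.

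The sequences before the starts of Nid1 and Col4a6, the 2 genes with an adjusted p below 0.05 after YBX3 KD, are shown with the short stretch in which the RefSeq starts of Col4a1 and Col4a2 overlap. Col4a6 reached the level required for testing in YBX3 KD libraries only, so no rise is read from its adjusted p. Y-box proteins take their name from the Y box, a promoter element with the core CCAAT or, on the other strand, ATTGG. Promoter windows of 300 bases, from 250 before to 50 after each start, were taken from RefSeq (GRCm38.p6) and each matched once to GRCm39. They were at hand for 7 of the 9 genes, while Nid2 and Col4a3 had none. Capitals mark CCAAT or ATTGG, and GGGCGG or CCGCCC, the GC box bound by Sp factors.
Nid1, chr13:13611937-13612186, plus strand, the 250 bases before the start: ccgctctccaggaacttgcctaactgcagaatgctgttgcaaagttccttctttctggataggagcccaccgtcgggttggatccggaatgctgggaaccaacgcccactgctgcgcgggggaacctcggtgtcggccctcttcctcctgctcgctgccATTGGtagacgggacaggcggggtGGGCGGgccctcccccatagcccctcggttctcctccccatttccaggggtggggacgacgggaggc
Col4a6, chrX:140257073-140257322, minus strand, the 250 bases before the start: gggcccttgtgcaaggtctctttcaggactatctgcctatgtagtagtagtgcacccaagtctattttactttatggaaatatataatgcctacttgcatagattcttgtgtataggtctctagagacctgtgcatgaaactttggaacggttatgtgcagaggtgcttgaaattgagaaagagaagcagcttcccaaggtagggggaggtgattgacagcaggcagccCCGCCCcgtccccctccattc
Col4a1 and Col4a2, chr8:11362805-11362826, plus strand, from the Col4a2 start to the Col4a1 start: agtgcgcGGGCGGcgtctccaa

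In these windows the Y-box core occurred once in Nid1 (91 bases before the start), once in Col4a1 (145 before), once in Col4a2 (32 before) and once in Col4a5 (196 before). It was not found in the windows of Col4a4, Col4a6 and Hspg2. Of all 32851 windows of this length, 37.4% hold the motif on either strand. The GC box was in 35.7% of all windows and occurred 5 times in Hspg2, 3 times in Col4a2, once each in Col4a1, Col4a5, Col4a6 and Nid1, and not in Col4a4. The motif TATAAA, in 13.6% of all windows, was in none of the 7. The windows of Col4a1 and Col4a2 share 78 bases and are rich in CpG, with 37 and 33 CpG dinucleotides against a median of 7.0 over all windows, whereas that of Col4a6 has 3. Letters alone do not show binding.

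The 13 libraries held 33451547 to 71811371 estimated counts, and levels are given as CPM, counts brought to a common depth with TMM factors of 0.969 to 1.02, on which 1 count was worth 0.0139 to 0.0309 CPM. The targeted mRNA, Ybx3, was at 311 ± 29.2 CPM (SD) in the 6 control KD libraries and fell to 45.0 ± 13.2 CPM (SD) in the 7 of YBX3 KD (edgeR adjusted p = 5.26e-06), the direction the labels give. The myoblast markers Myf5 (31.3 to 73.5 CPM), Cdh15 (99.6 to 163) and Itga7 (329 to 582) were present in every library, Myod1 was low (0.601 to 3.32), and Pax7 and Msc were at or near 0. Summed markers of endothelial cells (0.776 to 1.54 CPM in control KD, 1.06 to 1.74 in YBX3 KD), macrophages (1.43 to 2.51 and 1.39 to 2.48) and epithelial cells (1.23 to 7.0 and 1.33 to 3.94) were low, with Pecam1, Kdr, Adgre1, Ptprc and Epcam at or near 0. The endothelial sum was mostly Cdh5, whose ranges overlapped between the siRNAs. Tek, the gene of an endothelial receptor, was at 0.0485 to 0.114 CPM in control KD and 0.233 to 0.313 in YBX3 KD at 0 day, without overlap. The share of all genes without overlap at 0 day was not counted. At 1 day Tek was at 0.0582 to 0.0784 and 0.0512 to 0.318, and it rests on 2 to 22 counts per library. Tek reached the level required for testing in YBX3 KD libraries only, so nothing is read from its separation at 0 day. Fibroblast markers, nearly all Pdgfra, summed to 42.5 to 75.3 and 29.9 to 81.2 CPM with Thy1 and Lum near 0, and smooth muscle markers, nearly all Acta2, to 629 to 915 and 629 to 1098 CPM. All these sums overlapped between the siRNAs, and the part of these markers in the results was not tested. The summed level of 9 markers of differentiating muscle was 34.6 to 117 CPM at 0 day and 78.3 to 89.4 at 1 day in control KD, and 64.9 to 95.4 and 33.5 to 113 in YBX3 KD, so these ranges overlapped between the days. This sum was mostly Tnnt2 (24.4 to 90.5 CPM over the 13 libraries), with Acta1 at 0.549 to 34.2 and Myog at 0.0523 to 3.46 CPM. The 4 libraries of replicate D stood apart from replicates A to C within their groups. Of the 16848 genes tested, 21.9% were higher in D than in every other library of the same group in all 4 groups, and 21.3% were lower in all 4.

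To compare levels between genes, the CPM of control KD libraries were divided by the length of the canonical transcript in kilobases. Nid1 led with 125 CPM per kb, above 97.1% of the 16763 genes with a length. Hspg2 followed with 51.3 CPM per kb, and both steps, from Nid1 to Hspg2 and from Hspg2 to Col4a1, were free of overlap over the 6 control KD libraries. Next came Col4a1 (27.7), Col4a2 (25.4), Nid2 (20.3) and Col4a5 (18.2 CPM per kb), whose ranges overlapped from each gene to the next. Col4a4 (0.0152), Col4a3 (0.0134) and Col4a6 (0.00872 CPM per kb) were over 3 orders of magnitude lower and not distinguishable from one another in order. These C2C12 cells thus contained transcripts for the widely used pair of chains, and for the Col4a5 chain, with only traces of Col4a3, Col4a4 and Col4a6 transcripts. In bulk RNA, fewer cells of a type and less RNA per cell cannot be told apart.

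**Figure D1:**
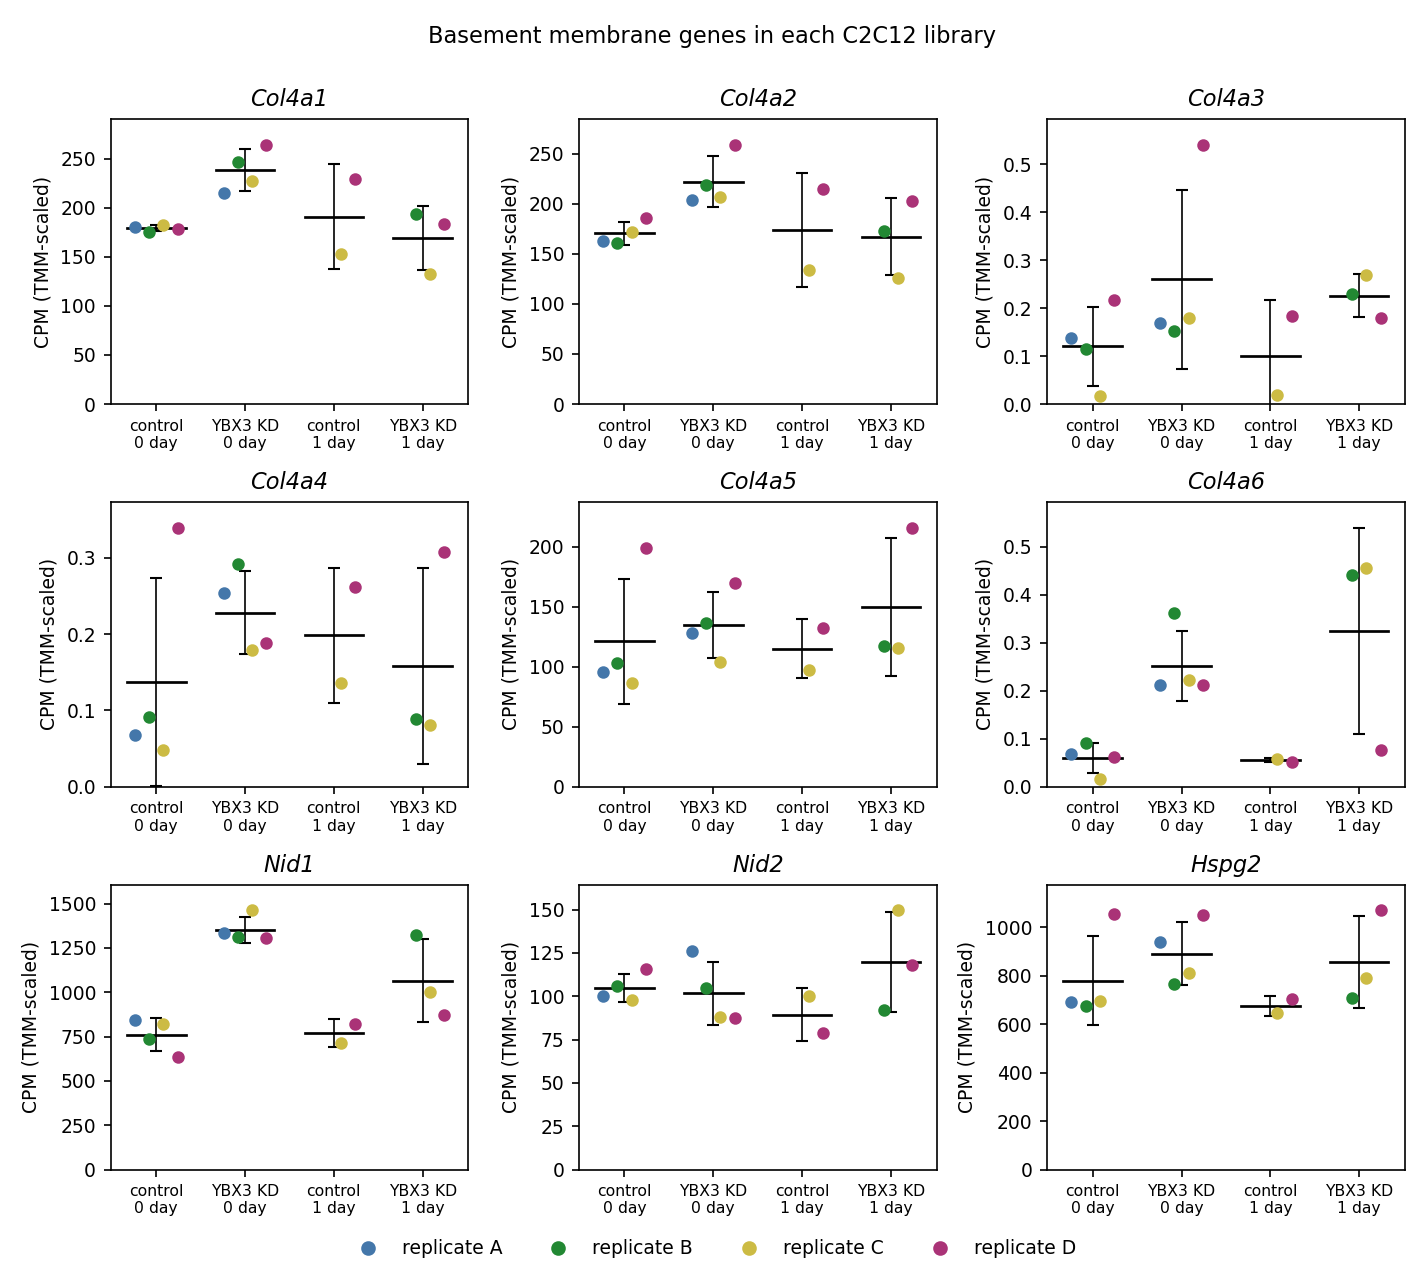
TMM-scaled CPM (vertical axis, linear from 0) of the 9 genes in each of the 13 libraries, with points coloured by replicate letter, horizontal lines at group means and bars of 1 SD, cut at 0. All 7 YBX3 KD libraries lie above all 6 control KD libraries for Nid1 (870 to 1462 against 637 to 844 CPM), while the replicate D points lead every group for Col4a2, Col4a5 and Hspg2.

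The effect of YBX3 KD over both time points was tested with edgeR's quasi-likelihood test, with the day as covariate. A gene is said to have risen or fallen where its Benjamini-Hochberg adjusted p over the 16848 genes was below 0.05. By this rule Nid1 rose and none of the 9 fell, where 2.34% of all genes tested changed and 1.29% rose. Col4a6 also had an adjusted p below 0.05, but it reached the required level for testing in YBX3 KD libraries only, so a difference was built into its selection and nothing is read from its place in the count. The study's own thresholds, a fold change above 1.3 with an adjusted p below 0.001, were met by 0.113% of genes and by none of the 9. With DESeq2 they were met by 1.06% of genes (183 of 17314), among them Nid1 (DESeq2 adjusted p = 3.44e-06). The study adjusted its p-values with independent hypothesis weighting, which was not used here, so these calls need not be the study's own.

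Nid1 encodes nidogen-1, also called entactin, which links laminin to collagen IV. In control KD it was at 844, 738, 824 and 637 CPM in replicates A to D at 0 day, and at 712 and 823 in C and D at 1 day. In YBX3 KD it was at 1337, 1313, 1462 and 1305 CPM in A to D at 0 day, and at 1324, 999 and 870 in B, C and D at 1 day. The groups did not overlap, although the lowest YBX3 KD library, replicate D at 1 day, exceeded the highest control KD library by little. Of all genes tested, 0.95% had every YBX3 KD library above every control KD library. The mean rose from 763 ± 81.1 (SD, n = 6) to 1230 ± 212 CPM (n = 7), a fold change of 1.62 (95% interval 1.37 to 1.91) and a log2 fold change of 0.70 ± 0.11 (SE; edgeR adjusted p = 0.00804). Matched by letter and day, all 6 pairs were higher in YBX3 KD, by 1.06-fold in replicate D at 1 day to 2.05-fold in replicate D at 0 day.

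Nid2 encodes nidogen-2, a related protein with the same kind of binding partners. Its level in control KD was 100, 106, 97.6 and 116 CPM in A to D at 0 day, and 100 and 78.5 in C and D at 1 day. In YBX3 KD it was 126, 105, 88.2 and 87.2 CPM at 0 day, and 92.0, 150 and 118 in B, C and D at 1 day. Its groups overlapped, only 3 of 6 pairs were higher, and its log2 fold change was 0.13 ± 0.14 (SE; 95% interval -0.17 to 0.43; edgeR adjusted p = 0.704). Within libraries, the ratio of Nid1 to Nid2 counts was 7.82 ± 1.71 (SD, n = 6) in control KD and 11.9 ± 3.82 (n = 7) in YBX3 KD. Adjusted for the day, the ratio was 1.49-fold higher (two-sided exact permutation test within days over 700 arrangements, p = 0.0471, adjusted p = 0.0943 over 2 ratios), so a shift between the nidogens did not pass the test. At 0 day the ratio was 5.50 to 8.44 in control KD and 10.6 to 16.6 in YBX3 KD, and at 1 day 7.11 to 10.5 against 6.68 to 14.4. Without control KD replicate D at 1 day, or without YBX3 KD replicate C at 1 day, the adjusted p was 0.0357 and 0.0381 (exact permutation; 0.0357 to 0.375 over all alternatives).

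Hspg2 encodes the perlecan core protein. In control KD its level was 691, 674, 695 and 1053 CPM in A to D at 0 day, and 646 and 705 in C and D at 1 day. In YBX3 KD it was 937, 767, 809 and 1050 CPM in A to D at 0 day, and 706, 790 and 1069 in B, C and D at 1 day. Control KD replicate D at 0 day stood with the highest YBX3 KD libraries, and the other 5 control libraries lay between 646 and 705 CPM. The log2 fold change was 0.25 ± 0.13 (SE; edgeR adjusted p = 0.406). Libraries with the same letter deviated together, and in the paired fit, with a replicate block by letter, it was 0.29 ± 0.074 (SE; edgeR adjusted p = 0.0401; 0.00734 to 0.594 over all alternatives). In that paired fit, 9.78% of genes changed, among them Nid1 (adjusted p = 0.00890) and Hspg2 of the 9. Without the 4 libraries of replicate D, 12.5% of genes changed, among them Nid1 (log2 fold change 0.75, adjusted p = 0.00102), Hspg2 (0.26, 0.0291) and Col4a5 (0.33, 0.0280). Col4a6 was below 0.05 in both fits, with the limit already given.

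The trace chain Col4a6 carried 3, 4, 1 and 2 counts in control KD replicates A to D at 0 day, and 3 and 2 in C and D at 1 day. In YBX3 KD it carried 10, 26, 10 and 9 counts in A to D at 0 day, and 25, 17 and 3 in B, C and D at 1 day. As CPM, 6 of the 7 YBX3 KD libraries (0.211 to 0.456) lay above all control KD libraries (0.0162 to 0.0911), and replicate D at 1 day (0.0768) lay among them. Summed over libraries and scaled by depth, 100 counts stood against 15, a ratio of 5.34 (95% counting interval 3.09 to 9.89, which covers counting error only). Col4a6 entered the test only through its YBX3 KD libraries, 3 of which reached the required 0.227 CPM while no control KD library did, so its fitted value is a description and not evidence of a rise. That log2 fold change was 2.25 ± 0.46 (SE; edgeR adjusted p = 0.0239), and leaving out any of 7 libraries one at a time took the adjusted p above 0.05, up to 0.0719 (0.00158 to 0.0719 over all alternatives). These were A and C of control KD at 0 day, C and D of control KD at 1 day, and A, B and C of YBX3 KD at 0 day. With no filter on low counts its adjusted p was 0.0425, and with at least 10 counts required in every library it was not tested.

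The other trace chains did not pass the test. Col4a3 carried 1 to 7 counts in control KD libraries and 7 to 23 in YBX3 KD libraries, with a summed ratio of 2.37 (95% counting interval 1.52 to 3.82) and a log2 fold change of 1.18 ± 0.55 (SE; edgeR adjusted p = 0.328). It too entered the test only through YBX3 KD libraries. Col4a4 carried 3 to 11 and 3 to 21 counts, with a summed ratio of 1.45 (0.965 to 2.22) and a log2 fold change of 0.40 ± 0.50 (adjusted p = 0.749).

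Col4a1 encodes the more abundant chain of the common collagen IV trimer. In control KD it was at 181, 175, 182 and 178 CPM in A to D at 0 day, a spread of only 1.74% (coefficient of variation), and at 153 and 229 in C and D at 1 day. In YBX3 KD it was at 215, 246, 227 and 264 CPM in A to D at 0 day, and at 193, 132 and 183 in B, C and D at 1 day. At 0 day all 4 YBX3 KD libraries thus lay above all 4 control KD libraries, and at 1 day the groups overlapped. How many of all genes were so separated at 0 day was not counted, so nothing is read from it. Across the 2 days together, its log2 fold change was 0.19 ± 0.13 (SE; edgeR adjusted p = 0.537).

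Col4a2 encodes the partner chain. At 0 day it was at 163, 161, 172 and 186 CPM in control KD and at 204, 219, 207 and 259 in YBX3 KD. These values again did not overlap, with the same limit as for Col4a1. At 1 day it was at 134 and 214 CPM in control KD and at 172, 126 and 202 in YBX3 KD. Across the 2 days together, this gene's log2 fold change was 0.22 ± 0.14 (SE; edgeR adjusted p = 0.501), and 0.23 ± 0.098 in the paired fit (edgeR adjusted p = 0.159). The ratio of Col4a1 to Col4a2 per kilobase was 0.98 to 1.17 in control KD and 0.923 to 1.15 in YBX3 KD, and a shift of this ratio did not pass the test (0.982-fold, two-sided exact permutation p = 0.677, adjusted p = 0.677). Over the 13 libraries, the log2 CPM of the pair correlated with Pearson's r = 0.94, and Col4a2 was the gene most like Col4a1 among all tested. The libraries share letters and siRNAs, and the transcripts share 318 bases, so the correlation is a description.

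**Figure D2:**
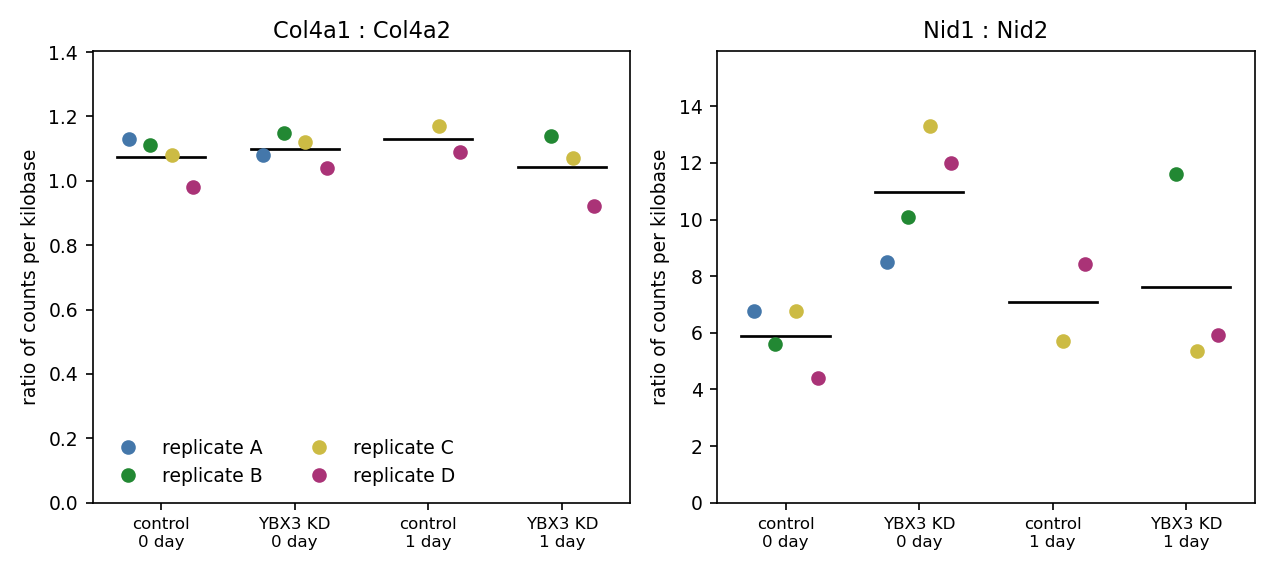
Ratio of counts per kilobase (vertical axes, linear from 0) of Col4a1 to Col4a2 and of Nid1 to Nid2 in each library, coloured by replicate letter, with lines at group means. The Col4a1 to Col4a2 ratio stays between 0.923 and 1.17 in all 13 libraries, while the Nid1 to Nid2 ratio runs from 4.42 to 13.3.

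Col4a5, on the X chromosome, encodes a chain found in both restricted trimers. In control KD it was at 96.0, 103, 86.9 and 199 CPM in A to D at 0 day, and at 97.6 and 133 in C and D at 1 day. In YBX3 KD it was at 128, 137, 104 and 170 CPM at 0 day, and at 118, 115 and 216 in B, C and D at 1 day. Replicate D was the highest library in every group, 2.09-fold above the mean of the others in control KD at 0 day and 1.85-fold in YBX3 KD at 1 day. The log2 fold change was 0.24 ± 0.22 (SE; edgeR adjusted p = 0.659), and 0.28 ± 0.10 in the paired fit (edgeR adjusted p = 0.106). Its ratio to the facing gene Col4a6 was not given, since Col4a6 did not reach 10 counts in every library. Col4a2 and Hspg2 shared the pattern of replicate D, which made 3 of the 9 genes higher in D in all 4 groups, against 21.9% of all genes tested. What sets replicate D apart was not tested.

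Taking the genes as a list, the median log2 fold change after YBX3 KD was 0.25, beside 0.0008 over all genes tested, and all 9 values were positive. For Col4a3 and Col4a6 a positive sign was favoured by the way they entered the test. Over the 7 that also passed the filter in control KD libraries, the median was 0.24 and all 7 were positive. The genes share libraries, and at most 4 of the 9, Col4a6 included, had an adjusted p below 0.05 under the alternatives run.

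**Figure D3:**
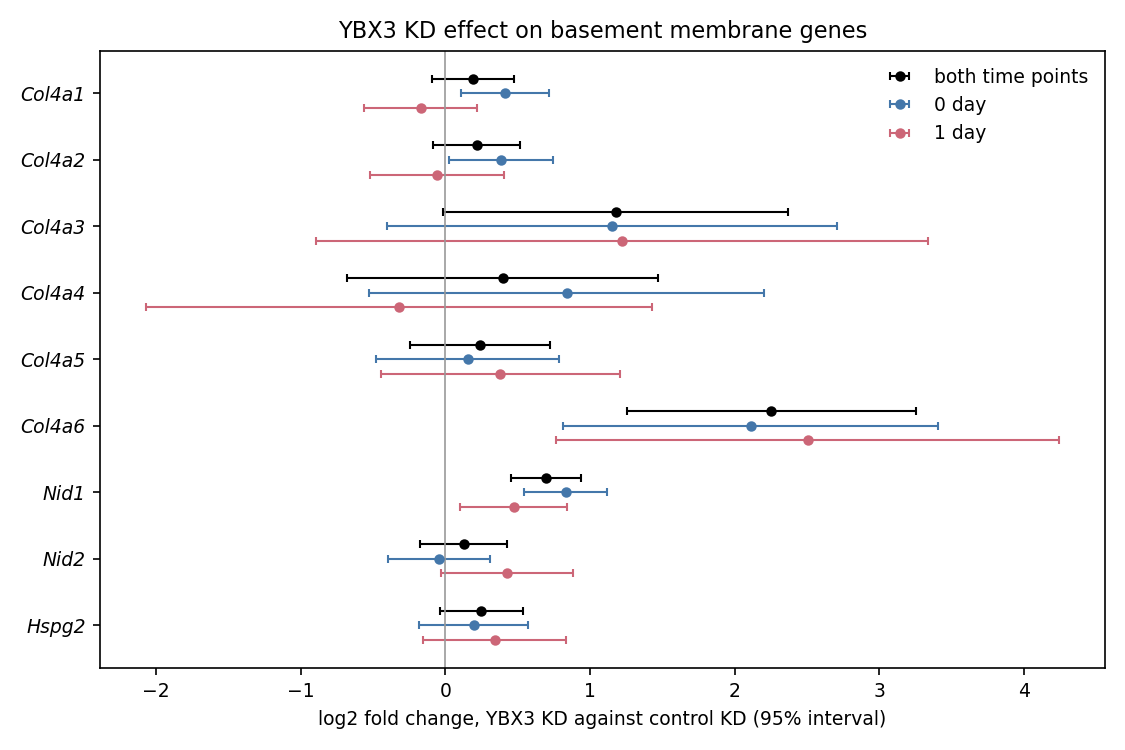
Log2 fold change of YBX3 KD against control KD (horizontal axis) with 95% intervals from edgeR's quasi-likelihood fit, over both time points (black), at 0 day (blue) and at 1 day (red), unadjusted for the number of genes. The fit is unpaired. Its Nid1 interval over both time points, 0.46 to 0.94, excludes 0, as does that of Col4a6, which was tested only through its YBX3 KD libraries. Those of the other 7 genes include it. In the paired fit, not drawn, the intervals of Hspg2 (0.12 to 0.45), Col4a5 (0.054 to 0.51), Col4a2 (0.010 to 0.45) and Col4a3 (0.22 to 2.37) also exclude 0. Of these genes, only Hspg2 had an adjusted p below 0.05 there, and Col4a3 has the same limit as Col4a6.

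The effect of YBX3 KD was then taken at each day from a fit with 1 coefficient per group. At 0 day, 0.427% of all genes changed, and Nid1 was the only one of the 9, with a log2 fold change of 0.83 ± 0.13 (SE; edgeR adjusted p = 0.0213). The adjusted p went above 0.05 without any of 7 libraries in turn, namely A, B or C of control KD or any of the 4 of YBX3 KD at 0 day, up to 0.107. Col4a1 (0.41 ± 0.14, adjusted p = 0.269) and Col4a2 (0.38 ± 0.16, adjusted p = 0.419) did not pass. With DESeq2 and the replicate block by letter, a fit in which 8.99% of genes changed, the paired adjusted p was 0.0200 for Col4a1 (0.0200 to 0.496 over all alternatives) and 0.0208 for Col4a2 (0.0208 to 0.651). The same block in edgeR gave 0.0858 and 0.0838. At the study's thresholds with DESeq2, met by 0.559% of genes at 0 day, Nid1 was again the only one of the 9. At 1 day, 0.0712% of all genes changed and none of the 9 (edgeR), and DESeq2 also called none. Nid1 and Col4a6 had an unadjusted p below 0.05 in edgeR, as did 1312 of the 16848 genes tested. Col4a6 has the limit already given. The Nid1 value at 1 day was 0.47 ± 0.17 (adjusted p = 0.573), that of Col4a1 was -0.17 ± 0.18 (adjusted p = 0.833) and that of Col4a2 was -0.06 ± 0.21 (adjusted p = 0.951). For Hspg2 at 1 day, 0.34 ± 0.23 (adjusted p = 0.757) became 0.42 in DESeq2 with the replicate block by letter (adjusted p = 0.0135; 0.0135 to 1.00 over all alternatives), where 16.7% of genes changed. With the same block in edgeR its adjusted p was 0.0852.

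Whether the effect differed between the days was tested by the interaction. No gene passed it in edgeR, a background of 0.0% with 444 genes at an unadjusted p below 0.05, and DESeq2 called 1 gene. None of the 9 passed, and in these fits without a block Col4a1 alone had an unadjusted p below 0.05. Its effect was smaller at 1 day by a log2 difference of -0.58 ± 0.23 (SE; unadjusted p = 0.0250 from edgeR, adjusted p = 1.00), with all 4 same-letter pairs above 1 at 0 day and both below 1 at 1 day. For Nid1 the difference was -0.36 ± 0.21 (adjusted p = 1.00), and for Col4a2 it was -0.44 ± 0.27 (adjusted p = 1.00). The gene called by DESeq2 was none of the 9. With the replicate block by letter, edgeR gave Col4a1 and Col4a2 an unadjusted p of 0.00845 and 0.0359 (both adjusted p = 0.433). In that fit 1859 of 16848 genes had an unadjusted p below 0.05. DESeq2 with the same block called 47 of 30314 genes, none of the 9. Nid1, Col4a1 and Col4a2 had an unadjusted p below 0.05 there, as did 2194 of all genes. Without replicate D, where control KD at 1 day keeps 1 library, the Col4a1 difference was -0.26. The 1 day groups hold 2 and 3 libraries.

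From 0 day to 1 day no gene changed in edgeR over both siRNAs, in control KD or in YBX3 KD, each a background of 0.0%, with 477, 242 and 721 genes at an unadjusted p below 0.05. DESeq2 called 2, 4 and 2 genes, none of them among the 9. Without the 4 libraries of replicate D, edgeR called 161, 4 and 40 genes, again none of the 9; control KD then holds 1 library at 1 day, which is assumed to vary like the other groups. Over both siRNAs the 9 log2 fold changes ran from -0.23 to 0.25, none with an unadjusted p below 0.05, and in control KD from -0.25 to 0.61, also with none. In YBX3 KD 3 of the 9 had an unadjusted p below 0.05, Col4a1 (-0.49 ± 0.15), Nid1 (-0.35 ± 0.14) and Col4a2 (-0.41 ± 0.18, all adjusted p = 0.988). In DESeq2 with the replicate block by letter, where 0.211% of genes changed, Col4a1 fell (-0.52 ± 0.13, adjusted p = 0.0498), while the same block in edgeR gave an adjusted p of 0.661. Over both siRNAs the values of Col4a1, Nid1 and Col4a2 were -0.23 ± 0.14, -0.19 ± 0.11 and -0.21 ± 0.14.

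The partners of these genes were read from lists of symbols, as counts over both time points. In edgeR, 2636 of all 16848 genes had an unadjusted p below 0.05. The share of all genes that rose, 1.29% here, was 3.17% in DESeq2, 5.4% in the paired fit with the replicate block and 5.8% without replicate D, and the lists' counts are to be read against these. Of 11 laminin subunit genes tested, Lamc3 rose (log2 fold change 0.99 ± 0.18, 0.368 ± 0.0444 to 0.727 ± 0.155 CPM, adjusted p = 0.0131) and none fell. The abundant chain genes Lamb1 (-0.02, adjusted p = 0.899) and Lamc1 (0.04, adjusted p = 0.814) did not pass, and the list's median was 0.21. In the paired fit with the replicate block 3 rose, as without replicate D. Of 14 other basement membrane matrix genes tested, Hmcn2, a hemicentin gene, rose (1.00 ± 0.24, adjusted p = 0.0493) and Fbln1, the fibulin-1 gene, fell (-0.54 ± 0.12, 63.7 ± 11.7 to 43.9 ± 5.62 CPM, adjusted p = 0.0304), with a median of 0.26. In this list 4 rose and 1 fell in DESeq2, 5 and 1 in the paired fit, and 6 and 1 without replicate D. Agrn, the agrin gene, was at -0.01 (adjusted p = 0.989).

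Of 20 genes for collagen assembly and processing tested, only Plod2, a lysyl hydroxylase gene, rose (0.27 ± 0.059, 160 ± 14.7 to 191 ± 5.76 CPM, adjusted p = 0.0375), and none fell. Serpinh1, which encodes the collagen chaperone HSP47, was at -0.05 (adjusted p = 0.730), Pxdn, whose product crosslinks collagen IV, at -0.03 (adjusted p = 0.898), and the median was 0.05. In the paired fit and without replicate D, 2 of them rose. None of 12 proteases, heparanase and protease inhibitors tested changed in edgeR or DESeq2, 1 had an unadjusted p below 0.05, and their median was 0.20, but 2 rose in the paired fit and 3 without replicate D. Of 18 receptors tested, the integrin genes Itgb1 (0.29 ± 0.066, 880 ± 58.5 to 1070 ± 98.6 CPM, adjusted p = 0.0394) and Itgav (0.26 ± 0.054, adjusted p = 0.0296) rose and none fell, and in the paired fit and without replicate D 3 rose. Dag1, which encodes dystroglycan, was at 0.00 (adjusted p = 1.00), and the median was 0.11.

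Other collagen chains stood further from 0. Of 28 tested, 7 rose and none fell, 25 had a positive log2 fold change, and the median was 0.45. In the paired fit 13 rose, and without replicate D 12 did. The 2 with the smallest p were Col6a4 (1.33 ± 0.16, 0.650 ± 0.132 to 1.64 ± 0.172 CPM, adjusted p = 0.00180) and Col5a2, a chain of the fibrillar collagen V (0.51 ± 0.069, 1529 ± 64.3 to 2158 ± 277 CPM, adjusted p = 0.00321). Col15a1 and Col18a1 belong to this list and to the other basement membrane matrix list. Through which libraries the genes of the 6 lists passed the filter was not checked. Entry through YBX3 KD libraries alone would favour a positive sign, as for Col4a6. From 0 day to 1 day none of the genes of the 6 lists changed in edgeR, where 3 of the other collagen chains had an unadjusted p below 0.05 and none of the other lists' genes did. DESeq2 called none, while without replicate D 2 list genes fell, Col18a1 and Ecm1, and 1 rose, Loxl2, each named after its value was seen.

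**Figure D4:**
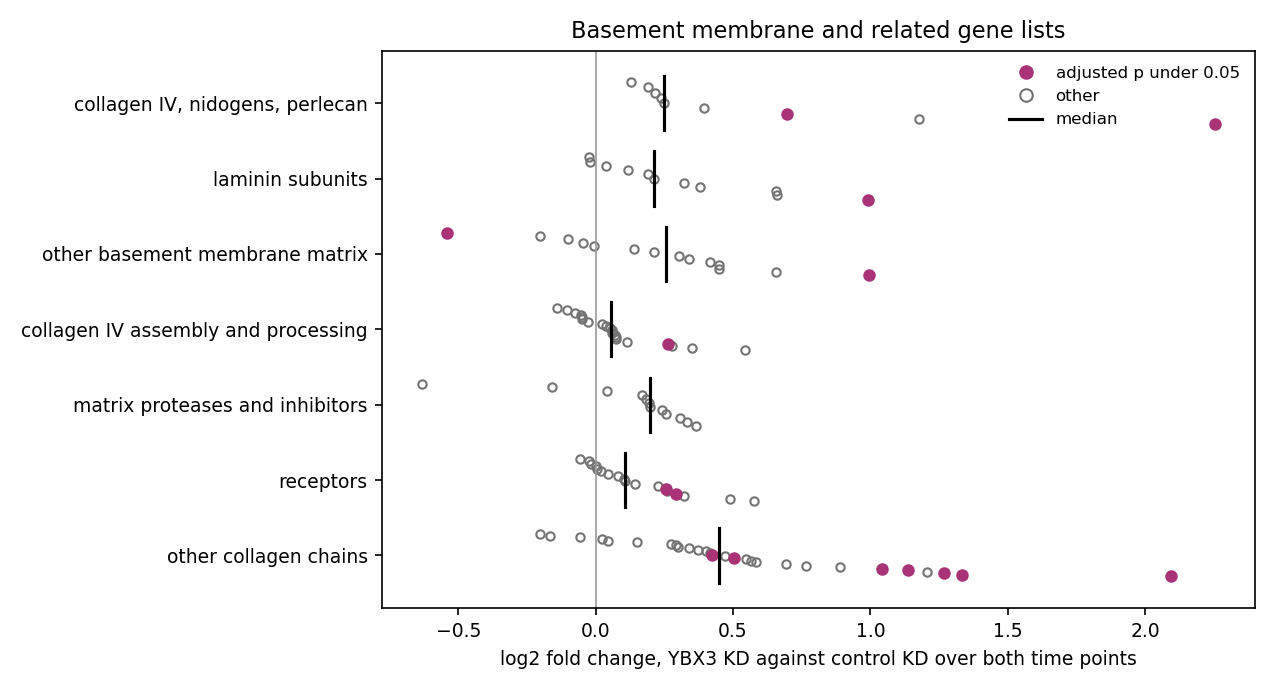
Log2 fold change of YBX3 KD against control KD over both time points (horizontal axis) for each tested gene of the collagen IV, nidogen and perlecan set and of 6 related lists, filled where the adjusted p was below 0.05, with a line at each median. The medians run from 0.05 for collagen assembly and processing to 0.45 for the other collagen chains.

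The genes most like each of the 9 over the 13 libraries, among all 16848 tested, were named by Pearson's r of log2 CPM. For Nid1 they were Prss27 (0.97), Thbs1 (0.95) and Tek (0.94), where Thbs1 encodes the matrix protein thrombospondin-1 and Tek is the endothelial marker named above. Like Col4a6, Tek reached the required 0.227 CPM in YBX3 KD libraries only. A difference between the siRNAs was thus built into its selection, and nothing is read from its place here. For Hspg2 they were Pkd1 (0.98), Ppp4r1l-ps (0.97) and Plekha5 (0.97), for Col4a5 Zfp810, Mfsd13a and Arfgap3 (each 0.98), and for Nid2 Ogn (0.93), Oasl2 (0.90) and Zim1 (0.87). Col4a2 was most like Cxcr6 (0.97), Col5a3 (0.95) and Col4a1 (0.94), and Col4a1 was like Col4a2, Col5a3 (0.92) and Lrrc1 (0.90). For the trace chains the values were highest for Cd80 (0.95), Gopc (0.92) and Gjb5 (0.91) with Col4a6, for Ndor1 (0.89), Gm5628 and Zfp952 (each 0.86) with Col4a3, and for Trpt1 (0.90), Ddrgk1 (0.89) and Zeb2os (0.88) with Col4a4. Among the 9 genes themselves, Col4a5 and Hspg2 had r = 0.87, Nid1 and Col4a6 had 0.77, and Nid1 and Nid2 had -0.12. The way Col4a6 entered the test favours a positive value with Nid1, so nothing is read from that value. All these values rest on 13 points that share siRNA and replicate letter.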

How the data were processed

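RNA from 13 C2C12 samples was sequenced as stranded mRNA libraries. The authors quantified reads with Salmon against GRCm39 and Gencode M30 and deposited estimated counts per gene, which are whole numbers and not normalized; the step that made them whole is not given in the sources used here. Genes were named by Ensembl ID from GENCODE vM39 (54969 of 55642 matched). Counts were fitted with edgeR 4.0.16 (R 4.3.3) after filterByExpr and TMM scaling, leaving 16848 genes, with Benjamini-Hochberg adjustment, and DESeq2 1.42.0 as an alternative. Fold changes over both time points had the day as covariate, and other contrasts came from 1 coefficient per group. Within-library ratios used counts plus 0.5. Both the fits and the ratio test were tested on simulated data. Genes outside the 9 were named as the 2 with the smallest p in each direction per list, or the 3 most correlated, and further list genes (Lamb1, Lamc1, Agrn, Serpinh1, Pxdn, Dag1) after their values were seen. The 9 genes and all lists were chosen with earlier results of these data known.

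Replicate letters come from the sample descriptions, and the titles carry other numbers. Deviations from the group means of libraries with the same letter correlated above 0.1 in 16 of 16 pairs (0.117 to 0.730, median 0.338). It was 11 of 46 pairs with different letters and 8 of 16 with the same title number. Of the same-letter pairs, 6 were of replicate D (0.409 to 0.730), which stood apart. Removing group means pushes libraries of different letters in opposite directions, and control KD at 1 day holds only C and D. The letters were taken to pair the samples, but how far this holds for A to C alone was not tested. Motifs were searched on both strands, and no 2 matches overlapped in the windows of the 9 genes. The alternatives for the lists were chosen after seeing the data.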

Additional observations from a re-analysis of the deposited data

Results flagged for a closer look

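In the groups of 4 libraries at 0 day, 18 sets of values were tested, each of 1 gene in 1 group. In 5 of them, the gap of 1 library to the next, divided by the range of the set, exceeded Dixon's critical value of 0.829. The nominal rate of about 1 in 20 holds for independent values, while these genes share libraries. The share of all genes flagged by this rule was not counted, so the 5 are a description. Replicate D of control KD was highest for Hspg2 (1053 CPM against 674 to 695 in the other 3 libraries), Col4a5 (198.8 against 86.9 to 103) and Col4a4 (0.3395 against 0.0485 to 0.0911). Replicate D of YBX3 KD was highest for Col4a3 (0.5404 against 0.153 to 0.179 CPM), and replicate B of YBX3 KD for Col4a6 (0.3617 against 0.211 to 0.223). The Col4a3, Col4a4 and Col4a6 values rest on 1 to 26 counts per library.

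The same-letter ratio of YBX3 KD to control KD was above 1 in all 4 pairs at 0 day and below 1 in both pairs at 1 day for Col4a1, where the 1 day ratios were 0.801 and 0.863, and for Col4a2, where the ratio nearer to 1 at 1 day was 0.945. The interaction test of this difference gave an edgeR adjusted p of 1.00 for each.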

How the results depend on the processing

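Over both time points, Nid1 kept its direction and its call under all 22 alternatives that gave a value (log2 fold change 0.64 to 0.76, adjusted p at most 0.0261). The number of the 9 genes changed was 1 with at least 10 counts in every library, 4 without replicate D, 0 at the study's thresholds, and 1 to 2 with a library left out. At 0 day it was 0 with the replicate block by title number, 3 with DESeq2 and the replicate block by letter, 0 at the study's thresholds in edgeR, where DESeq2 gave Nid1, and 0 to 1 with a library left out. DESeq2 with that block gave 1 gene at 1 day (Hspg2) and 1 from 0 day to 1 day in YBX3 KD (Col4a1). The replicate block by letter changed no other call in edgeR than that of Hspg2. Without replicate D, Col4a1 (0.09) and Col4a2 (0.17) at 1 day and Nid2 (0.067) at 0 day turned positive, and the cause was not tested. Without replicate D, or without control KD replicate C or D, control KD at 1 day holds 1 library, which is assumed to vary like the other groups. With a library left out, Nid2 at 0 day ran from -0.17 to 0.02, and Col4a1, Col4a2 and Col4a4 at 1 day from -0.43 to 0.14, from -0.35 to 0.32 and from -1.18 to 0.19. The log2 ratio change was -0.057 to 0.0088 for Col4a1 to Col4a2 and 0.47 to 0.74 for Nid1 to Nid2 with a library left out. Swapping labels within the 6 same-letter pairs of libraries (replicate block) gave 0.50 for Nid1 to Nid2 (exact permutation p = 0.188, where 0.03125 is the smallest it allows). DESeq2 gave no adjusted p for 9 values of the trace chains. Low counts limit the precision for Col4a3, Col4a4 and Col4a6.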
